A study of Homo sapiens with 6 samples.

Results

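The integrated stress and unfolded protein response is carried here by 36 genes: transcription factors and feedback regulators of the ATF4 pathway, enzymes and transporters that ATF4 controls, the sensors of the endoplasmic reticulum (ER), and the chaperones, folding enzymes and degradation factors of the ER. The members are those genes of the count and FPKM tables whose symbol is on the list for this response. They make up 36 of the 32192 genes of the count table, and all 36 are also among the 31951 genes of the FPKM table. All 36 passed the filter on low counts, which left 16971 genes to test. The study asked which genes and splicing events change when APEX1 (ENSG00000100823.11), a base excision repair nuclease and redox regulator of transcription factors, is raised in A549 cells, a human lung adenocarcinoma line used as a model of non-small cell lung cancer. In 3 libraries (APEX1-OE) the cells were transiently transfected with a pIRES-hrGFP-1a-based plasmid that carries FLAG-tagged APEX1 cDNA. In the other 3 libraries (Ctrl) they received a control plasmid, whose content the sources used here do not specify. All 6 are paired-end, stranded libraries of polyadenylated RNA with 28131955 to 41009197 counts each. The labels do not say whether the 3 libraries of a group came from separate cultures, so the p-values measure the spread between these samples, which may be technical.

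The unfolded protein response is set off when unfolded proteins gather in the ER. Its sensors span the ER membrane: IRE1 (ERN1) splices the XBP1 mRNA, ATF6 is cleaved to a free transcription factor, and PERK (EIF2AK3) phosphorylates the translation factor eIF2, as other kinases do when amino acids or haem run short or viral RNA appears. Phosphorylated eIF2 lowers protein synthesis while translation of ATF4 goes up, and in non-small cell lung cancer lines ATF4 is known to drive serine synthesis downstream of NRF2, whose inhibitor KEAP1 is mutated in A549 cells. The counts per gene used here do not show XBP1 splicing, ATF6 cleavage, phosphorylation or translation.

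The promoters of several members carry the short motifs known from this response, and the matches are printed because these motifs are the known recognition elements of ATF6, XBP1 and ATF4. RefSeq promoter windows on GRCh38.p14 were matched for 33 of the 36 members (PSPH, SHMT2 and PDIA3 are named only), and the 250 bases before the start site were searched on both strands. The ER stress response element (ERSE, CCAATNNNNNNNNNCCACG) was present in 6 of 33 members and in 26 of 35116 promoters (0.0740%). The related ERSE-II (ATTGG and CCACG with 1 base of any kind between them) was present in 3 members and in 18 promoters (0.0513%). HSPA5 at chr9:125241383-125241593 (minus strand) and XBP1 at chr22:28800598-28800819 (minus strand) hold an ERSE near the start site, and the XBP1 window overlaps an exon of an antisense transcript. HYOU1 at chr11:119057228-119057455 (minus strand) holds ERSE-II at both of its marked places, and HERPUD1 at chr16:56931892-56932141 (plus strand) holds ERSE-II and a C/EBP-ATF response element (CARE, TGATGNAA). Capitals mark the fixed letters of the motifs, on either strand, and each window stops before the first annotated exon of its gene.
HSPA5: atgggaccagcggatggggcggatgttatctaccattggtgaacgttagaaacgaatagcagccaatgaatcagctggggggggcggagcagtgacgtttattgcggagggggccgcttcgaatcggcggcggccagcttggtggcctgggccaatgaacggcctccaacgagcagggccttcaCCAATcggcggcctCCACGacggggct
XBP1: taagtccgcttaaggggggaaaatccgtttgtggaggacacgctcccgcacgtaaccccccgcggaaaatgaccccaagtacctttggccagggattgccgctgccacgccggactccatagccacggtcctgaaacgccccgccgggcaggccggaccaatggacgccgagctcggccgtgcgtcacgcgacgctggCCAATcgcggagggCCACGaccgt
HYOU1: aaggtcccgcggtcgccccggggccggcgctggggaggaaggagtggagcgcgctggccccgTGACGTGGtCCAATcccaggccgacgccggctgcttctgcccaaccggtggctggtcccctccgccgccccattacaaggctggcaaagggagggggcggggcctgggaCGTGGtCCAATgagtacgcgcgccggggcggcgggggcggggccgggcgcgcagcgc
HERPUD1: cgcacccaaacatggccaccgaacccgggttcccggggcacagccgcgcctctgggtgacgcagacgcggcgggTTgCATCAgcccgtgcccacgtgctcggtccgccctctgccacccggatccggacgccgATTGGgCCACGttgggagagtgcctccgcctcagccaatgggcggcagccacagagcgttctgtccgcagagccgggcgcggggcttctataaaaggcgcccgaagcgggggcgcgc

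The UPRE core, TGACGTGG, was in HYOU1 alone among the members and in 215 promoters (0.612%), and in HYOU1 it overlaps the upstream ERSE-II. The CARE is the element through which ATF4 acts with C/EBP partners. It was in CHAC1, ASNS and HERPUD1 and in 1104 promoters (3.14%), so this short motif is common by comparison. For the remaining matches, stretches of 30 bases show the motif in capitals: HSP90B1 at chr12:103930211-103930240 (plus strand) and chr12:103930316-103930345 (plus strand), CANX at chr5:179698773-179698802 (plus strand), CALR at chr19:12938379-12938408 (plus strand), CRELD2 at chr22:49918549-49918578 (plus strand), SDF2L1 at chr22:21642105-21642134 (plus strand), CHAC1 at chr15:40953251-40953280 (plus strand) and ASNS at chr7:97872458-97872487 (minus strand). All 30 bases of the HSP90B1, CANX, CHAC1 and ASNS stretches lie in annotated exons of these genes in GENCODE 44. No ERSE or ERSE-II was found in the 12 ATF4 pathway members whose windows were searched. A match describes letters and not a bound site, and a window without a match says only that these letters are not in it.
HSP90B1 upstream ERSE: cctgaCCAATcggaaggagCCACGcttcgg
HSP90B1 downstream ERSE: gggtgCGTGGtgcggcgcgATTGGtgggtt
CANX ERSE: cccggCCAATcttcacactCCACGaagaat
CALR ERSE: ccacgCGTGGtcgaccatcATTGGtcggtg
CRELD2 ERSE: cctctCGTGGcgaactcggATTGGgccata
SDF2L1 ERSE-II: cctcggaagCGTGGaCCAATcaaaaccctc
CHAC1 CARE: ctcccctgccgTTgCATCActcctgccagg
ASNS CARE: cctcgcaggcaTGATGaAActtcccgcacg

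The libraries stand apart in a way the groups do not explain. On the first principal component, which holds 72.6% of the variance, APEX1-OE replicate 1 lies with Ctrl replicates 1 and 2 (side A) and APEX1-OE replicates 2 and 3 lie with Ctrl replicate 3 (side B). The sides were defined from the counts themselves and are not groups of the study. Library deviations (log2 CPM minus the gene's mean) ran with GC content across genes: the correlation was 0.718, 0.576 and 0.568 in the side A libraries (APEX1-OE 1, Ctrl 1, Ctrl 2) and -0.561, -0.744 and -0.661 in the side B libraries (APEX1-OE 2, APEX1-OE 3, Ctrl 3). Genes are not independent replicates, so these correlations are descriptions. APEX1 itself followed the labels, with 1272, 1185 and 1300.2 CPM in the APEX1-OE libraries and 244, 243 and 214 CPM in the Ctrl libraries. CPM are counts brought to a common library size with scaling by trimmed mean of M-values (TMM), and FPKM are fragments per kilobase of transcript at a common depth, the scale on which genes are compared with each other.

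Marker levels matched an epithelial cancer line. Of 10 A549 and epithelial markers, 9 had a mean FPKM of at least 1, KRT8 being the highest at 3046 FPKM and EPCAM the exception at 0.342, and the list summed to 8471, 8014 and 8956 FPKM in the APEX1-OE and 9038, 9006 and 8099 FPKM in the Ctrl libraries. CDKN2A, which is deleted in A549, was at 0 FPKM in every library but Ctrl replicate 2, which had 0.01 FPKM. Of 6 alveolar type II markers, ABCA3, LAMP3 and SFTPD stood at 11.5, 5.61 and 3.30 FPKM, and SFTPB, SFTPC and NKX2-1 were below 1. Of 4 secretory markers, 1 had a mean of at least 1, MUC5B at 1.07 FPKM. Fibroblast and endothelial markers were all below 1 FPKM, and the leukocyte markers CD14 and CD68 stood at 2.44 and 1.29 FPKM. In bulk samples, fewer cells of a type and less RNA per cell cannot be told apart.

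All 36 members were expressed. The median member stood at 34.3 FPKM, 27 of 36 had a mean of at least 10 FPKM, and 25 lay above the 90th percentile of all genes. The top was SLC3A2, the heavy chain shared by several amino acid transporters, at 463 ± 91.3 FPKM (SD, n = 6), followed by the ER lectin chaperone CALR at 310.01 ± 34.8, the transcription factor CEBPB at 238 ± 41.3 and ATF4 at 178 ± 13.5. At the bottom were the PERK gene EIF2AK3 at 1.49 ± 0.663 FPKM, the lipoprotein receptor VLDLR at 2.84 ± 0.913, the HSP70 cochaperone DNAJC3 at 3.10 ± 1.44 and ATF6 at 3.60 ± 0.933. All of the ER membrane sensors stood at or below 4.83 FPKM, whereas their transcription factor partner XBP1 stood at 46.8 ± 2.27 FPKM. The stress-induced DDIT3 (CHOP) stood at 28.7 ± 4.31 FPKM. Steadiness over the 6 libraries differed widely: XBP1, HYOU1, PSPH and ATF4 spanned ratios of highest to lowest FPKM of 1.13 to 1.21, while HSP90B1 and EIF2AK3 spanned 3.74 and 3.51.

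**Figure D1:**
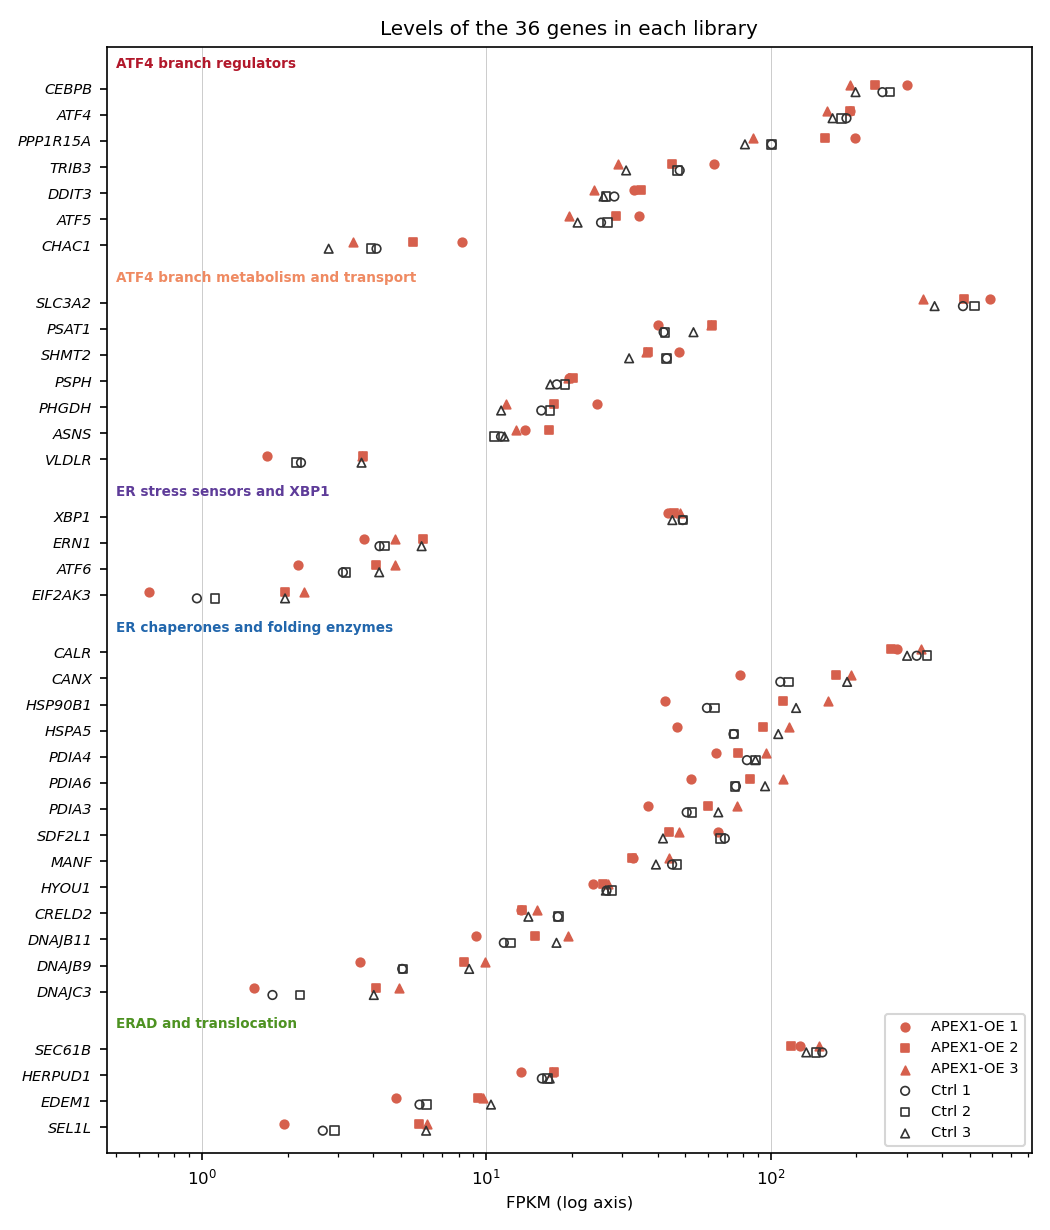
FPKM of the 36 members (log axis) by role, with a symbol for each of the 3 APEX1-OE and 3 Ctrl libraries. Levels run from 1.49 FPKM for EIF2AK3 to 463 FPKM for SLC3A2, and the groups overlap in all members but ASNS and PSPH.

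Compared with Ctrl, APEX1-OE left no member past the test, and the 2 largest differences lay in the ATF4 pathway. CHAC1, an enzyme that degrades glutathione, and PPP1R15A (GADD34), the phosphatase subunit that reverses eIF2 phosphorylation, stood higher by log2 fold changes of 0.68 (SE 0.408) and 0.66 (SE 0.353), each from 3 libraries against 3. The edgeR quasi-likelihood test over 16971 genes called 1 gene, APEX1 (0.00589%), at an adjusted p under 0.05, and 0 of 36 members, and the smallest adjusted p of a member was 1.00. Without APEX1-OE replicate 2 or 3 or Ctrl replicate 1 or 2, edgeR called 0 genes. DESeq2, limma-voom and limma on FPKM also called 0 members, and had 0 at an unadjusted p under 0.05. By edgeR the count at an unadjusted p under 0.05 was 0 of 36 members, against 118 genes in all (0.695%). The log2 fold change was positive for 24 of 36 members, against 9759 of 16971 genes, and smaller than its SE for 30 of 36, against 14175 of 16971 genes. By CPM the groups did not overlap in 1 member, ASNS, which stood higher in APEX1-OE (all genes: 1.38% above and 2.01% below Ctrl). By FPKM they did not overlap in ASNS and PSPH, both higher in APEX1-OE (of 16970 genes, 1.19% above and 1.77% below Ctrl), for an exact permutation p of 0.1, the smallest that 3 against 3 libraries can give. Fewer libraries separate more genes: without APEX1-OE replicate 3 the FPKM did not overlap in 8 members that stood higher (4.38% of all genes) and 6 that stood lower (5.82%). Without APEX1-OE replicate 1 these counts were 6 (18.2%) and 0 (6.26%), and without Ctrl replicate 3 they were 2 (5.20%) and 4 (7.58%).

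All 14 members of the ATF4 pathway had a positive log2 fold change, with a median of 0.16, though upper-quartile factors gave 13 of 14 and limma-voom 12 of 14. Of the 22 ER members 10 were positive, with a median of -0.027, and the median over all genes tested was 0.033. These counts depend on single libraries, and the ER count also on the model: with the library side as a term 1 of 22 was positive, and with an offset for GC content and transcript length 3 of 22. With APEX1-OE replicate 1 left out, 7 of 14 ATF4 pathway members and 13 of 22 ER members were positive, and the medians were -0.052 and 0.15. Without Ctrl replicate 3 they were 9 of 14 and 13 of 22, with medians of 0.081 and 0.078. The ER count moved the other way without APEX1-OE replicate 3 (2 of 22, median -0.11), Ctrl replicate 1 (4), Ctrl replicate 2 (5) and APEX1-OE replicate 2 (6), where 13 or 14 ATF4 pathway members were positive, with a median of up to 0.32. APEX1-OE replicate 1 was the highest of the 6 libraries for 11 of 14 ATF4 pathway members (5354 of 16971 genes) and the lowest for 15 of 22 ER members (5920 of 16971 genes).

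**Figure D2:**
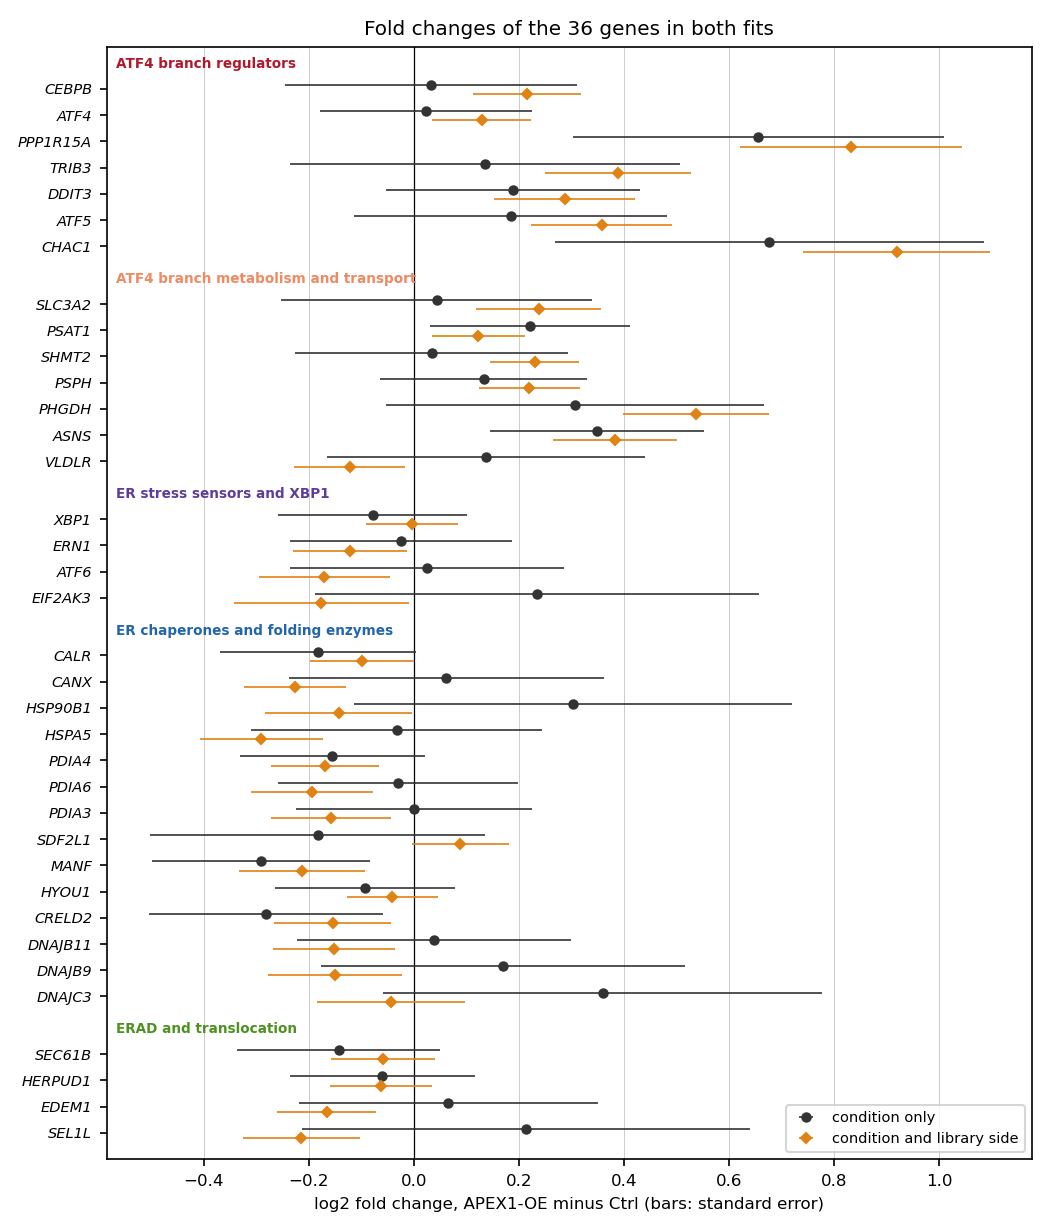
Log2 fold change of APEX1-OE over Ctrl for each member, with SE bars, grouped by role, from edgeR fits of all 6 libraries. Circles are from the fit with condition as the only term, and diamonds from the fit with the library side as a term. The circles of the ATF4 pathway members lie right of 0, from 0.024 to 0.68. Those of the ER members lie on both sides of it, from -0.29 to 0.36. The diamonds lie right of 0 for 13 of 14 ATF4 pathway members, all but VLDLR (-0.12), and for 1 of 22 ER members.

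Among the regulators of the ATF4 branch, ATF4 itself hardly differed between the groups. It had 661, 557 and 449.96 CPM in APEX1-OE replicates 1, 2 and 3 and 587, 575 and 479 CPM in Ctrl replicates 1, 2 and 3. The groups overlapped, with APEX1-OE replicate 3 the lowest library of all, and the log2 fold change was 0.024 (SE 0.201), or -0.010 with upper-quartile factors. DDIT3, the proapoptotic partner and target of ATF4, had 53.6, 47.97 and 32.00 CPM in the APEX1-OE libraries and 42.03, 39.95 and 35.1 CPM in the Ctrl libraries. APEX1-OE replicates 1 and 2 lay above the Ctrl libraries and APEX1-OE replicate 3 below them, for a log2 fold change of 0.19 (SE 0.241), or 0.021 without APEX1-OE replicate 1 and 0.38 without APEX1-OE replicate 3. CEBPB, a C/EBP factor that pairs with ATF4, had 811, 531 and 419 CPM in the APEX1-OE libraries and 612, 661 and 449 CPM in the Ctrl libraries, a log2 fold change of 0.032 (SE 0.278). TRIB3, a pseudokinase that ATF4 and CHOP induce and that restrains ATF4, had 252, 152 and 95.6 CPM in the APEX1-OE libraries and 176, 175 and 104 CPM in the Ctrl libraries, and its log2 fold change was 0.14 (SE 0.371). In CEBPB and TRIB3 alike APEX1-OE replicate 1 was the highest library and APEX1-OE replicate 3 the lowest, so the Ctrl values lay inside the APEX1-OE range. Without APEX1-OE replicate 1 the log2 fold changes of ATF4, CEBPB and TRIB3 were -0.13, -0.29 and -0.30, and without Ctrl replicate 3 they were -0.065, -0.12 and -0.077.

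PPP1R15A (ENSG00000087074.7) and CHAC1 (ENSG00000128965.11) stood out from the other regulators. PPP1R15A had 651, 429 and 234 CPM in the APEX1-OE libraries and 303, 308 and 223 CPM in the Ctrl libraries. APEX1-OE replicates 1 and 2 lay above every Ctrl library and APEX1-OE replicate 3 lay within the Ctrl range, for a log2 fold change of 0.66 (SE 0.353). CHAC1 had 23.2, 13.3 and 7.91 CPM in the APEX1-OE libraries and 10.7, 10.4 and 6.62 CPM in the Ctrl libraries. Here too APEX1-OE replicates 1 and 2 were above all Ctrl libraries and APEX1-OE replicate 3 was between Ctrl replicates 2 and 3, for a log2 fold change of 0.68 (SE 0.408). Neither passed the edgeR test, with an adjusted p of 1.00 for both. Without APEX1-OE replicate 1 the log2 fold changes were 0.24 and 0.19, with adjusted p of 0.639 and 0.750 by edgeR. With APEX1-OE replicate 3 left out they were 0.96 and 0.98, both at an unadjusted p under 0.05 but with adjusted p of 1.00 by edgeR. The share of all genes at that unadjusted threshold is not given for this setting. DDIT3 and ATF5, another ATF4-related factor, share their locus with other expressed genes: the opposite strand at DDIT3 holds MARS1, with 5628 to 9354 counts a library against at most 2037 for DDIT3, and at ATF5 it holds NUP62, with 3331 to 4918 against at most 3657. The ER protein gene CRELD2 likewise lies opposite ALG12, with 840 to 1092 counts against at most 1200. Whether reads of these neighbours entered the counts was not tested, since the sources used here do not give the use of strand in counting.

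Of the ATF4 targets in metabolism and transport, asparagine synthetase had the largest log2 fold change in the edgeR fit of all 6 libraries with condition as the only term. ASNS (ENSG00000070669.16), which makes asparagine from aspartate and glutamine and carries a CARE in its printed stretch, had 46.9, 48.3 and 35.9 CPM in the APEX1-OE libraries and 35.5, 34.2 and 33.3 CPM in the Ctrl libraries. Every APEX1-OE library lay above every Ctrl library, APEX1-OE replicate 3 by a narrow margin, and the log2 fold change was 0.35 (SE 0.204) with an adjusted p of 1.00 by edgeR. PHGDH, which opens the serine synthesis pathway, had 117, 69.9 and 45.9 CPM in the APEX1-OE libraries and 68.3, 74.6 and 44.98 CPM in the Ctrl libraries. Only APEX1-OE replicate 1 stood clear of the other libraries, and the log2 fold change was 0.31 (SE 0.359). With the side as a term PHGDH was at 0.54, above ASNS at 0.38. The next enzymes of the pathway, PSAT1 and PSPH, and mitochondrial SHMT2, which passes serine carbon to folate, had overlapping CPM. PSPH did not overlap by FPKM, with 19.6, 20.2 and 19.3 FPKM in the APEX1-OE libraries and 17.7, 18.9 and 16.8 FPKM in the Ctrl libraries. SLC3A2 had 2158, 1478 and 1028 CPM in the APEX1-OE libraries and 1593, 1777 and 1154 CPM in the Ctrl libraries, again highest in APEX1-OE replicate 1 and lowest in APEX1-OE replicate 3, with a log2 fold change of 0.044 (SE 0.296). Without APEX1-OE replicate 1 the log2 fold change was -0.13 for PHGDH and -0.28 for SLC3A2, against 0.28 for ASNS, and without Ctrl replicate 3 it was -0.12 for SLC3A2.

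The ER stress sensors were low in every library, and EIF2AK3 and ATF6 were ordered by side and not by group. EIF2AK3 had 4.37, 11.04 and 12.5 CPM in the APEX1-OE libraries and 5.88, 6.89 and 10.95 CPM in the Ctrl libraries. The side B libraries all lay above those of side A, and the log2 fold change of APEX1-OE over Ctrl was 0.23 (SE 0.423). ATF6 had 22.6, 35.7 and 40.5 CPM in the APEX1-OE libraries and 29.7, 31.03 and 36.3 CPM in the Ctrl libraries, with the same order of sides and a log2 fold change of 0.025 (SE 0.260). ERN1 had 50.2, 68.2 and 53.2 CPM in the APEX1-OE libraries and 52.2, 55.3 and 67.02 CPM in the Ctrl libraries, with overlapping groups, neither side apart, and a log2 fold change of -0.025 (SE 0.211). XBP1, the target of the IRE1 nuclease and a transcription factor of ER folding and degradation genes, had 123, 109 and 111 CPM in the APEX1-OE libraries and 127, 129 and 106 CPM in the Ctrl libraries. These values lie close together in all 6 libraries, the groups overlap, and the log2 fold change was -0.078 (SE 0.180). The upper-quartile scaling and limma-voom put ATF6 on the other side of 0, at -0.020 and -0.0025, and leaving out libraries other than APEX1-OE replicate 1 or Ctrl replicate 3 gave -0.15 (without APEX1-OE replicate 3) to -0.016 (without Ctrl replicate 2). EIF2AK3 was at 0.55 without APEX1-OE replicate 1 and -0.034 without APEX1-OE replicate 3, and ERN1 at 0.044 and 0.024 with the same libraries left out and at 0.089 without Ctrl replicate 3.

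HSPA5 (BiP, ENSG00000044574.7), the HSP70 chaperone whose release from the sensors starts the response, had 252, 428 and 512 CPM in the APEX1-OE libraries and 366, 373 and 479 CPM in the Ctrl libraries. APEX1-OE held both the lowest library, replicate 1, and the highest, replicate 3, and the log2 fold change was -0.033 (SE 0.277). HSP90B1 (GRP94), the ER form of HSP90, spread more widely, with 168, 369 and 517 CPM in the APEX1-OE libraries and 216, 234 and 405 CPM in the Ctrl libraries. Its side B libraries lay above side A, the groups overlapped, and the log2 fold change was 0.30 (SE 0.417). The cochaperone DNAJC3, which also inhibits PERK, had 11.7, 26.8 and 31.4 CPM in the APEX1-OE libraries and 12.5, 15.9 and 25.96 CPM in the Ctrl libraries, a log2 fold change of 0.36 (SE 0.417) with the same order of sides. CALR had 727, 589 and 726 CPM in the APEX1-OE libraries and 785, 868 and 663 CPM in the Ctrl libraries, with side A above side B, narrowly, and its log2 fold change was -0.18 (SE 0.186). Of the 14 chaperones and folding enzymes, 6 had a positive log2 fold change, with a median of -0.031. In every member with a printed ERSE or ERSE-II the groups overlapped. Without APEX1-OE replicate 1 the log2 fold change was 0.19 for HSPA5, 0.62 for HSP90B1, 0.66 for DNAJC3 and -0.24 for CALR. It was 0.10 for HSPA5 without Ctrl replicate 3, and without APEX1-OE replicate 3 it was -0.085 for HSP90B1 and 0.084 for DNAJC3.

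Members of ER-associated degradation and translocation had log2 fold changes of -0.14 to 0.21. SEL1L, the scaffold of the HRD1 ubiquitin ligase, had 23.05, 58.2 and 60.2 CPM in the APEX1-OE libraries and 28.9, 32.2 and 60.9 CPM in the Ctrl libraries. Side B was again above side A, and the log2 fold change of APEX1-OE over Ctrl was 0.21 (SE 0.426), or 0.52 and -0.0021 when APEX1-OE replicates 1 and 3 were left out in turn, and -0.0024 without Ctrl replicate 1. SEC61B, a subunit of the channel through which proteins enter the ER, had 115, 90.03 and 109.8 CPM in the APEX1-OE libraries and 125, 121 and 101 CPM in the Ctrl libraries, with overlapping groups and a log2 fold change of -0.14 (SE 0.194). HERPUD1, which serves HRD1 and carries ERSE-II and CARE, and EDEM1, which hands misfolded glycoproteins on for degradation, also overlapped between the groups. Of these 4 members, 2 had a positive log2 fold change.

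**Figure D3:**
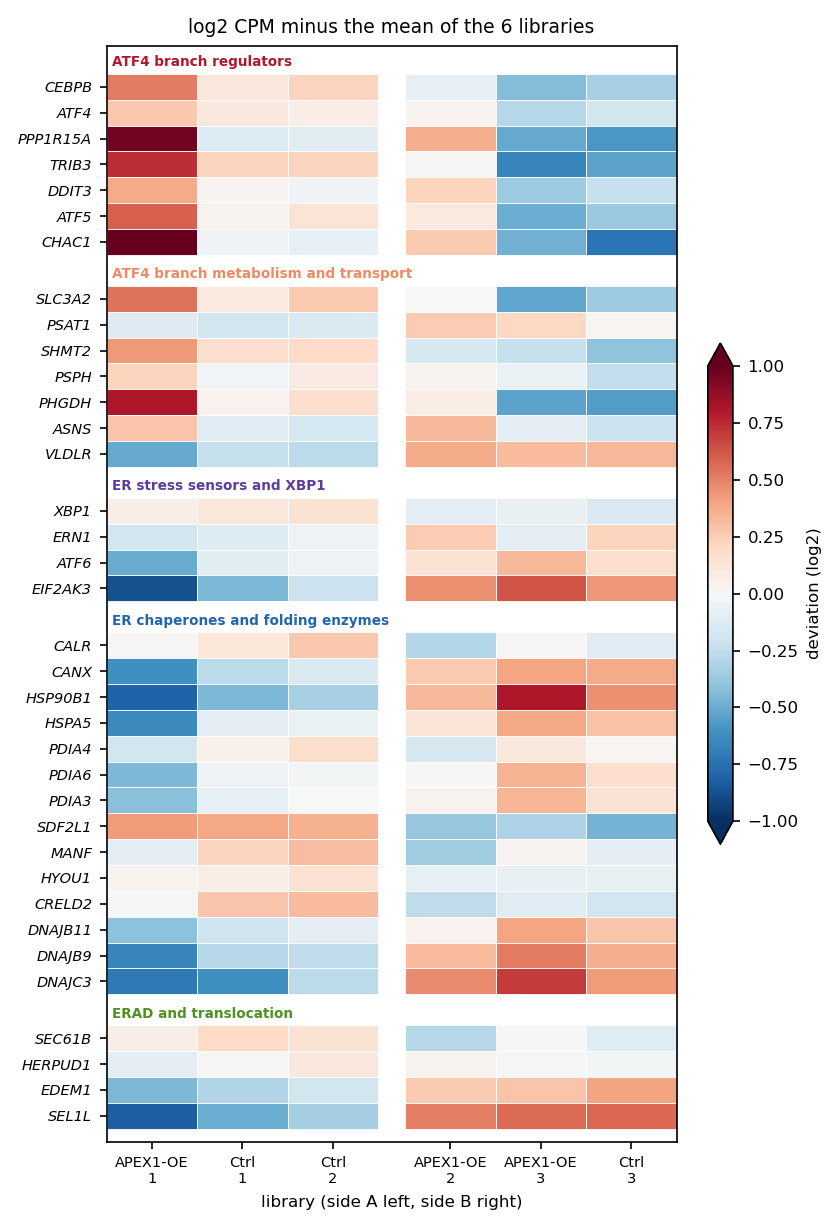
Deviation of each member in each library from its mean over the 6 libraries (log2 CPM, colour), with libraries ordered by side and members by role. The median of the ATF4 pathway members is high in APEX1-OE replicate 1 (0.48) and low in APEX1-OE replicate 3 (-0.40). The median of the ER members runs the other way (-0.41 and 0.31). PSAT1 and VLDLR go against the ATF4 pathway median, and XBP1, HYOU1 and SDF2L1 against the ER median. CALR, SEC61B, CRELD2, HERPUD1 and ERN1 have the same sign in both libraries.

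Compared within the sides, most ATF4 pathway members stood higher in APEX1-OE on both, while the ER members but SDF2L1 stood lower on side A and went both ways on side B. Within side A, APEX1-OE replicate 1 was set against the mean of Ctrl replicates 1 and 2, and within side B the mean of APEX1-OE replicates 2 and 3 against Ctrl replicate 3, so each difference rests on 1 library of a group and has no test of its own. The libraries of a side were not level on the first principal component. Scores on side A were 58.5 for APEX1-OE replicate 1 and 32.7 and 31.1 for Ctrl replicates 1 and 2. On side B they were -33.1 and -49.9 for APEX1-OE replicates 2 and 3 and -39.2 for Ctrl replicate 3. Whether the differences within a side follow GC content was not tested. Of the 14 ATF4 pathway members, 13 stood higher in APEX1-OE within side A (48.6% of all genes), 14 within side B (62.2%), and 13, all but VLDLR, within both (33.1%). Of the 22 ER members, 1 stood higher within side A and 11 within side B, 1 (SDF2L1) stood higher within both, and 11 stood lower within both (22.3% of all genes), against 0 ATF4 pathway members. The median differences within sides A and B were 0.37 and 0.21 for the ATF4 pathway, -0.31 and -0.0012 for the ER members, and -0.013 and 0.049 for all genes. The difference between the lists was not tested. CHAC1 stood higher by 1.13 and 0.62, PPP1R15A by 1.09 and 0.51, ASNS by 0.43 and 0.32, and PHGDH by 0.71 and 0.33, each as log2 CPM within sides A and B. HSPA5 differed by -0.55 within side A and -0.035 within side B.

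**Figure D4:**
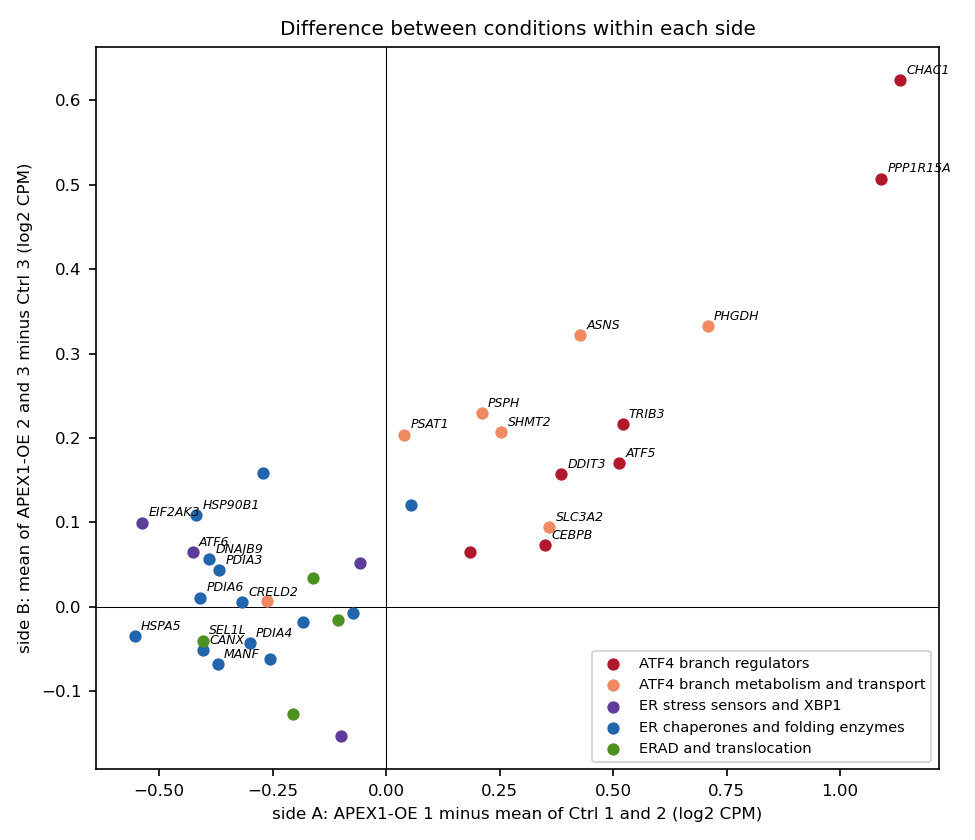
Difference of APEX1-OE minus Ctrl in log2 CPM within side A (horizontal) and within side B (vertical) for the 36 members, coloured by role. CHAC1 and PPP1R15A lie farthest to the upper right, at 1.13 and 0.62 and at 1.09 and 0.51, while HSPA5 lies to the left at -0.55 and -0.035.

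With the side as a term of the edgeR fit, 8 of 36 members stood higher at an unadjusted p under 0.05 (8.61% of all genes) and 2 lower (3.02%), and all 8 belong to the ATF4 pathway: CHAC1, PHGDH, PPP1R15A, ASNS, TRIB3, SHMT2, ATF5 and PSPH. The lower members were HSPA5 and the ER lectin chaperone CANX. ATF5 carries the doubt about reads of NUP62. At an adjusted p under 0.05 the edgeR fit called 4 genes (0.0236%) and 0 members. CHAC1 came nearest, with a log2 fold change of 0.92 (SE 0.177) and an adjusted p of 0.131. For PPP1R15A the log2 fold change was 0.83 (SE 0.212, adjusted p 0.350), for PHGDH 0.54 (SE 0.139, adjusted p 0.316) and for HSPA5 -0.29 (SE 0.117, adjusted p 0.382). The ER members EIF2AK3, ATF6, DNAJC3, HSP90B1 and SEL1L, positive without the side, were at -0.18, -0.17, -0.043, -0.14 and -0.21 with it. These signs depended on single libraries. With the side but without APEX1-OE replicate 1, EIF2AK3, ATF6, DNAJC3 and HSP90B1 were positive, at 0.066, 0.032, 0.13 and 0.094, and SEL1L was at -0.075. DNAJC3 was also positive without Ctrl replicate 2, at 0.052. Of the ATF4 pathway members 13 of 14 were positive, and of the ER members 1 of 22. The median was 0.26 for the ATF4 pathway, -0.15 for the ER members and 0.0081 for all genes.

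This fit depended on single libraries. Without APEX1-OE replicate 1, 1 member stood higher (1.28% of all genes) and 0 lower (2.02%) at an unadjusted p under 0.05. Without APEX1-OE replicate 2 the counts were 5 (3.95%) and 0 (1.75%). They were 5 (3.67%) and 0 (1.97%) without Ctrl replicate 1, and 6 (3.76%) and 0 (1.65%) without Ctrl replicate 2, but 9 (8.78%) and 12 (10.7%) without Ctrl replicate 3. Without APEX1-OE replicate 3 the fit called 2864 of 17214 genes, and 21 members were among them: 12 higher (11.3% of all genes), which are all ATF4 pathway members but PSAT1 and VLDLR, and 9 lower (5.36%), namely HSPA5, HSP90B1, DNAJB11, MANF, PDIA3, PDIA4, PDIA6, CALR and CANX. In each of these 6 fits 13 of 14 ATF4 pathway members were positive, with medians of 0.17 (without APEX1-OE replicate 1) to 0.38 (without APEX1-OE replicate 3). Of the 22 ER members, 14 were negative without APEX1-OE replicate 1, and 19 to 21 without another library. Their median went from -0.036 (without APEX1-OE replicate 1) to -0.31 (without Ctrl replicate 3). Over the 6 fits the log2 fold change of CHAC1 lay between 0.64 and 1.14, that of PPP1R15A between 0.54 and 1.09, that of ASNS between 0.29 and 0.48, and that of HSPA5 between -0.56 and -0.064. The fit without APEX1-OE replicate 3 has 2 residual degrees of freedom, and Ctrl replicates 1 and 2, on which 1 of them rests, are the closest pair, with a chi-square per degree of freedom of 3.86 against 12.3 to 213 for other pairs. Their part in the 2864 calls was not tested. These fits without a library were chosen after seeing the data.

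The members differ in base composition, and the sides follow it. Of the 14 members with more than 52% GC in their longest transcript, all 14 stood higher on side A (all genes: 5976 of 6754), and of the 13 with less than 45% GC, 12 stood higher on side B (5469 of 6004). The ATF4 regulators had a median of 59.7% GC, from 49.7% for DDIT3 to 66.2% for CEBPB. TRIB3 had 61.5% GC and a side B minus side A difference of -0.79 in log2 CPM, and CHAC1 61.2% and -0.63. At the other end, SEL1L had 39.3% GC and a difference of 1.10, HSP90B1 39.7% and 1.06, DNAJC3 39.9% and 1.07, and EIF2AK3 42.5% and 1.02. After each library was adjusted for GC content and transcript length together, the median difference between sides went from -0.50 to -0.10 in the ATF4 pathway. In the ER members it went from 0.34 to 0.025. CHAC1 was then at -0.035 and HSP90B1 at 0.22. The 4 largest adjusted differences were those of XBP1, which went from -0.21 to -0.69, PHGDH at -0.51, EIF2AK3 at 0.42, and ASNS, which went from 0.0068 to -0.40. In absolute size the median adjusted difference was 0.14 over the members and 0.21 over all genes.

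**Figure D5:**
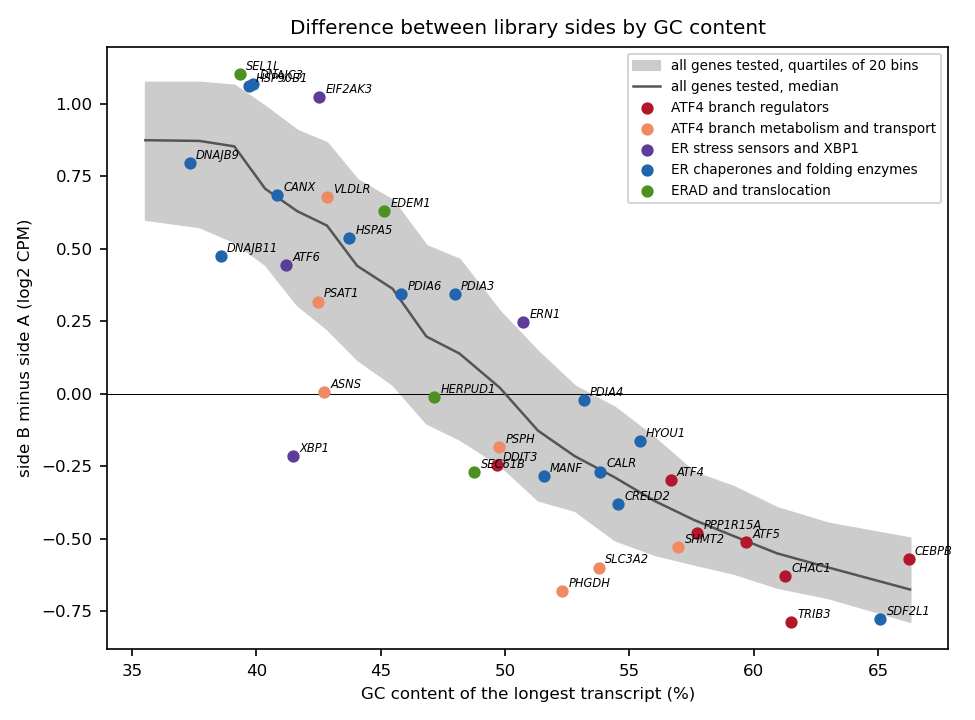
Side B minus side A difference in log2 CPM (vertical) against GC content of the longest transcript in percent (horizontal), for the 36 members by role, with the median and quartiles of all genes in GC bins. The difference goes from 1.10 for SEL1L at 39.3% GC to -0.79 for TRIB3 at 61.5% GC.

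With GC content and transcript length as an offset beside the side, 8 members stood higher at an unadjusted p under 0.05 by edgeR (7.77% of all genes) and 4 lower (4.79%). The higher members were CHAC1, PSPH, PHGDH, PSAT1, ASNS, SHMT2, DDIT3 and PPP1R15A, again all of the ATF4 pathway, and the lower ones were HSPA5, CANX, SEL1L and CRELD2. DDIT3 and CRELD2 carry the doubt about reads of MARS1 and ALG12. The fit called 12 genes at an adjusted p under 0.05 (0.0707%) and 0 members. CHAC1 had a log2 fold change of 0.79 (SE 0.144) and an adjusted p of 0.0718, the smallest of a member in any fit of all 6 libraries, where its adjusted p ranged up to 1.00. The medians were 0.23 for the ATF4 pathway and -0.10 for the ER members. With this fit 13 of 14 ATF4 pathway members and 3 of 22 ER members were positive. Without the side, the same offset gave the same counts of positive members, with medians of 0.17 and -0.080. It left 0 members called and PPP1R15A and CHAC1 at an unadjusted p under 0.05 by edgeR, with no share over all genes given beside them. This setting was added once the data had been seen.

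The wider pathway was read from lists of 115 further genes, of which 111 were tested: eIF2 kinases and factors, more ATF4 targets, ER folding genes, and degradation and translocation genes. The edgeR test called 0 of 111, as did DESeq2 and limma-voom. By edgeR 1 of 111, ATF3, had an unadjusted p under 0.05, against 118 of 16971 genes in all (0.695%). By CPM the groups did not overlap in 1 of 111 that stood higher in APEX1-OE, also ATF3 (1.38% of all genes). They did not overlap in 1 that stood lower, a degradation or translocation gene (2.01% of all genes). ATF3, a stress-induced factor that ATF4 activates, had 63.4, 55.2 and 33.97 CPM in the APEX1-OE libraries and 30.6, 27.7 and 26.5 CPM in the Ctrl libraries. Every APEX1-OE library stood above the highest Ctrl library, replicate 3 by the least, and the log2 fold change was 0.84 (SE 0.264) with an adjusted p of 1.00 by edgeR. With the side as a term it was 0.93, with an adjusted p of 0.0669, and 1.12 and 0.70 within sides A and B. The next smallest p-values belonged to STC2, a secreted glycoprotein, at a log2 fold change of 0.40 (SE 0.210), to the mitochondrial folate enzymes ALDH1L2 at 0.63 (SE 0.464) and MTHFD2 at 0.28 (SE 0.208), and to the translocation factor SEC62 at 0.40 (SE 0.325). These too depended on single libraries: leaving out each in turn gave 0.29 (APEX1-OE replicate 1) to 0.57 (APEX1-OE replicate 3) for STC2, and 0.25 (APEX1-OE replicate 2) to 1.09 (Ctrl replicate 3) for ALDH1L2. The range was 0.19 (APEX1-OE replicate 2) to 0.40 (APEX1-OE replicate 1) for MTHFD2 and 0.16 (APEX1-OE replicate 3) to 0.67 (Ctrl replicate 3) for SEC62. With the side as a term ALDH1L2, MTHFD2 and SEC62 were at 0.22, 0.15 and 0.13, and with the GC content and length offset alone, chosen after seeing the data, MTHFD2 and SEC62 were at 0.11 and 0.11. Among the 33 further ATF4 pathway genes tested, 30 had a positive log2 fold change, with a median of 0.22, and with the side as a term 24 of 33 did, with a median of 0.15. The eIF2 kinases and factors were positive in 7 of 11 (median 0.062), the ER folding genes in 12 of 27 (median -0.026), and the degradation and translocation genes in 16 of 40 (median -0.035). With the side as a term these counts were 6 of 11 (median 0.026), 12 of 27 (median -0.022) and 12 of 40 (median -0.078).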

How the data were processed

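RNA was measured in 6 A549 libraries, 3 APEX1-OE and 3 Ctrl, grouped by the sample labels. The authors aligned reads to GRCh38 with TopHat2, and from the uniquely mapped reads made the deposited count values per gene, which are raw. The deposited FPKM values were made by the authors from the same reads. Not given in the sources used here are the counting tool, annotation, counting unit and use of strand.

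Counts were filtered with filterByExpr (minimum count 10, minimum total 15), scaled by TMM and compared by the quasi-likelihood F-test of edgeR 4.0.16 in R 4.3.3 (robust fit, condition as the only term), with Benjamini-Hochberg adjustment over all 16971 genes at 0.05. FPKM of single members were compared with a two-sided exact permutation test on log2(FPKM + 1). GC content came from the longest transcript of each gene in GENCODE 44, and offsets used splines with 5 degrees of freedom on GC content and length, known for 98.7% of genes. Python 3.11.15, scipy 1.17.1 and pandas 2.3.3 were used for the rest. The procedure was checked on simulated data.

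Alternatives were DESeq2 1.42.0, limma 3.58.1 (voom and FPKM), RLE, upper-quartile and library-total scaling, other filters and pseudocounts, each library left out, the replicate block, the side of the first principal component, and the GC content and length offset with and without these terms. The members and lists were chosen with earlier results of these data known. Values per library were given for ATF4, DDIT3, XBP1, HSPA5, EIF2AK3, ERN1 and ATF6 and, in each of the 5 role lists, for the member with the highest mean FPKM, the largest absolute log2 fold change and the largest range of log2 CPM. Of other pathway genes, the 5 with the smallest p were named. PPP1R15A and TRIB3 were added to those given in full after their values were seen.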

Additional observations from a re-analysis of the deposited data

How the results depend on the processing

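Of the 24 named genes, 10 kept the sign of their log2 fold change over 21 settings, and 458 of 503 values had the sign reported. None of these 503 values had an adjusted p under 0.05 (edgeR, DESeq2 or limma). They do not include the fits with the side as a term that leave out a library, which were chosen after seeing the data. Without APEX1-OE replicate 3 that edgeR fit called 2864 genes and 21 members, among them CHAC1 (log2 fold change 1.08, adjusted p 3.43e-05) and HSPA5 (-0.38, adjusted p 0.00200), and 1 to 13 genes and 0 members without another library. The cause of the reversals was not tested. The highest count of EIF2AK3 in a library was 469, the smallest such value among the members. The labels give no order that pairs the libraries. Over all genes, deviations of same-numbered APEX1-OE and Ctrl libraries correlated at 0.607, -0.521 and 0.700. The positive pairs each lie within a side, and the negative pair lies across the sides. These correlations follow the sides, so they cannot show whether the numbers pair the libraries.

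Reversed log2 fold changes were ATF6 -0.0025, CEBPB -0.0056 and SLC3A2 -0.00099 with limma-voom, and ATF4 -0.010 and ATF6 -0.020 with upper-quartile factors. With the replicate block they were ATF6 -0.0095 and CEBPB -0.0033, and with the replicate block and the GC content and length offset ATF6 -0.21, HSP90B1 -0.00081 and SEL1L -0.072. With the side as a term they were EIF2AK3 -0.18, ATF6 -0.17, DNAJC3 -0.043, HSP90B1 -0.14 and SEL1L -0.21. With the side and the offset they were XBP1 0.073, EIF2AK3 -0.091, ATF6 -0.094, HSP90B1 -0.078, SEC61B 0.011 and SEL1L -0.16. With the offset alone, chosen after seeing the data, they were ATF6 -0.22 and SEL1L -0.069.

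Leaving out each library gave ranges of -0.13 to 0.15 for ATF4, -0.26 to 0.19 for HSPA5, -0.17 to 0.089 for ERN1, -0.29 to 0.22 for CEBPB, -0.28 to 0.27 for SLC3A2, -0.13 to 0.57 for PHGDH, -0.30 to 0.41 for TRIB3, -0.15 to 0.22 for ATF6, -0.034 to 0.55 for EIF2AK3, -0.085 to 0.64 for HSP90B1 and -0.0024 to 0.63 for SEL1L. Without a change of sign they were 0.021 to 0.38 for DDIT3, 0.084 to 0.71 for DNAJC3, -0.16 to -0.030 for XBP1, -0.28 to -0.089 for CALR, -0.24 to -0.046 for SEC61B, 0.19 to 0.98 for CHAC1 and 0.24 to 0.96 for PPP1R15A. With the replicate block and the offset MTHFD2 and SEC62 were at 0.11 and 0.11.

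Genes called numbered 1, but 10 without a filter, 2 with the replicate block, 4 with the side, 12 with the side and the offset, and 0 to 1 without a library (condition as the only term). Positive ER members numbered 10 of 22, but 8 with the replicate block, 2 with the replicate block and the offset, 1 with the side, 3 with the side and the offset, and 3 with the offset alone, a setting also chosen after seeing the data. They numbered 7 with upper-quartile factors, 8 with limma-voom, and 9 with limma on FPKM or a filter on CPM. Members at an unadjusted p under 0.05 numbered 0, but 2 without a filter, with the replicate block (with or without the offset) and with the offset alone, 10 with the side, 12 with the side and the offset, and 0 to 2 without a library. The share over all genes was 0.695% beside the 0, 11.6% beside the 10, and 7.77% higher and 4.79% lower beside the 12. No share over all genes is given for the other settings, so their counts cannot be read as particular to the members. Members whose FPKM did not overlap between groups numbered 2 (2.96% of all genes), and 2 to 14 without a library (5.19% to 24.5% of all genes, with 10.2% beside the 14). With the side as a term, 10 members had an unadjusted p under 0.05 (11.6% of all genes), and 1 (3.29%) to 26 (29.4%) without a library, a setting chosen after seeing the data.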

Other observations

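The aminoacyl-tRNA synthetases, which charge tRNAs with amino acids and of which many are ATF4 targets, were listed apart from the members. All 12 synthetases tested had a positive log2 fold change of APEX1-OE over Ctrl in the edgeR fit, with a median of 0.17 and a range of 0.028 to 0.31, and 0 were called or had an unadjusted p under 0.05. With the library side as a term, 7 of 12 were positive and the median was 0.046. Within side A 6 of 12 stood higher in APEX1-OE and within side B 12 of 12, with medians of -0.016 and 0.10.

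The values of 2 synthetase genes, picked after they were seen, are given as examples. TARS1, at 42.8% GC, had 45.5, 106 and 121 CPM in the APEX1-OE libraries and 57.1, 56.04 and 106 CPM in the Ctrl libraries, so that each side B library was above each side A library. WARS1, at 51.8% GC, had 249, 221 and 181 CPM in the APEX1-OE libraries and 214, 199 and 182 CPM in the Ctrl libraries, with APEX1-OE replicate 1 the highest library and no order of sides.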
